A study of Mus musculus with 18 samples.

Results

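Mature miRNAs were compared between PB-4-treated and untreated B16 cells, a mouse melanoma cell line, with 3 libraries in the PB-4-treated group and 3 in the control group. All 1978 mature miRNAs of the deposited miRNA table were members of the comparison, and its 6 libraries were taken from the 18 of the study, which also holds an ATRA-treated group and total RNA libraries. PB-4 is sodium 4-phenylbutanoate, a short aromatic fatty acid known both as a histone deacetylase inhibitor and as a chemical chaperone. ATRA is all-trans retinoic acid, the ligand of the retinoic acid receptors. Both agents were used by the study as inducers of B16 differentiation. The labels give the line, the treatment and skin as the source. They give no genotype, dose or treatment time for the sequenced cultures, and do not say whether the 3 libraries of a group came from separate cultures. The p-values therefore measure only the spread between these libraries, which may be technical.

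A miRNA is a short RNA cut from a hairpin precursor, of which either arm (5p or 3p) may be kept in the silencing complex. It pairs with mRNAs mainly through its seed, the bases that follow the first base of its 5′ end, and lowers the stability and translation of those mRNAs. Many miRNAs lie in introns of host genes or in clusters cut from a common transcript, so that members of a cluster can be made together. In melanocytes, miR-211 lies in an intron of the Mitf target Trpm1 and belongs to the pigment programme, while the miR-17-92 cluster is driven by Myc and favours proliferation.

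The mature sequences below, from RefSeq on GRCm38.p6, belong to miRNAs on which the results turn, with the seed (bases 2 to 8) in capitals. The first group holds miRNAs that were higher with PB-4, among them members of the miR-344 family that share a seed in pairs.
miR-139-5p: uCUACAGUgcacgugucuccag
miR-203-3p: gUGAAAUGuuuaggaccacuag
miR-218-5p: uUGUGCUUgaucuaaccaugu
miR-615-3p: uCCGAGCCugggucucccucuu
miR-129-2-3p: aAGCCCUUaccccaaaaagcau
miR-224-5p: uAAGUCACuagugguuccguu
miR-126a-3p: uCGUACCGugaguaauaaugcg
miR-344-3p: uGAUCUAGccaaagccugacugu
miR-344c-3p: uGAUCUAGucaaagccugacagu
miR-344d-3p: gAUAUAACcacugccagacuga
miR-344e-3p: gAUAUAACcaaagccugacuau
miR-344d-3-5p: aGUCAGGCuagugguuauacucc
The second group shows 2 members of the miR-34 and miR-449 family, of which miR-449a-5p was higher and miR-34a-5p was not called, and miR-92b-3p beside miR-92a-3p, which share a seed and moved in opposite directions.
miR-449a-5p: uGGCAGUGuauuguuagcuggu
miR-34a-5p: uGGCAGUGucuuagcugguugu
miR-92b-3p: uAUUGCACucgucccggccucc
miR-92a-3p: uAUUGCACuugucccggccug
The third group holds miRNAs that were lower with PB-4. miR-17-5p and miR-20a-5p share their seed, and so do miR-7a-5p and miR-7b-5p.
miR-17-5p: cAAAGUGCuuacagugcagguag
miR-20a-5p: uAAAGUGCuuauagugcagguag
miR-25-5p: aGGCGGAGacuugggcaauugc
miR-92a-1-5p: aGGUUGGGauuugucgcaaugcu
miR-7a-5p: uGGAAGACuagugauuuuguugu
miR-7b-5p: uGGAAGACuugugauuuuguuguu
miR-210-3p: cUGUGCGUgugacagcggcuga
Of the 1291 miRNAs tested, 1126 had an entry in the RefSeq table. miR-375-3p, which rose most among miRNAs with a mean of at least 50 CPM, is named only.

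The control libraries held 3838621 to 5873682 miRNA counts and the PB-4 libraries 4214693 to 6609053, and the 10 miRNAs with the most counts took 50.9 to 54.3% of each library. The unit CPM below is a count scaled by library total and TMM factor over the 6 libraries, means are given ± SD (n = 3 per group) and log2 fold changes ± standard error. In total RNA of the same groups, the melanocyte gene Dct lay at 3287 to 4603 CPM in the control group and 3509 to 4251 CPM with PB-4, and the melanosome gene Pmel at 1509 to 2614 CPM and 482 to 573 CPM. Mlana lay at 248 to 526 CPM and 35.1 to 68.3 CPM. Tyr, which codes for tyrosinase, lay at only 5.12 to 16.4 CPM and 2.38 to 8.95 CPM. Fewer cells of a kind and less RNA per cell cannot be told apart in these bulk libraries. Same-numbered miRNA libraries of the 2 groups deviated together, whereas in total RNA only replicate 3 stood apart from replicates 1 and 2. Values with the number as a block are given beside named miRNAs and host genes whose call it changed. Read counting was not stated to use strand. miRNAs from opposite strands of a locus had nearly equal counts in some cases (miR-24-3p 534828 and miR-3074-5p 534699 over the 6 libraries). The values of miR-24-3p and miR-9-5p and of their antisense partners are therefore uncertain. Those of miR-203-3p and miR-203b-5p (2507 and 371 counts), of miR-129-5p and miR-129b-3p (79612 and 39652) and of miR-129-2-3p and miR-129b-5p (1954 and 135) may be shared in part.

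PB-4 raised more miRNAs than it lowered. Of 1291 miRNAs tested (at least 10 counts over the 6 libraries), 213 (16.5%) passed an adjusted p of 0.05 in edgeR's quasi-likelihood test with Benjamini-Hochberg adjustment. Of these, 153 (11.9%) were higher and 60 (4.65%) were lower with PB-4. The groups did not overlap in any of the 213, nor in 204 of the 1078 not called. Separation of the groups, where given below, therefore adds nothing to a call. A change of at least 2-fold was met by 103 higher miRNAs (7.98%) and by 13 lower miRNAs (1.01%). The median log2 fold change was 1.55 over the higher and -0.70 over the lower miRNAs, so most falls were shallow and the rises ran to large folds. The higher miRNAs took 9.97 to 11.8% of the counts in the control libraries and 17.2 to 18.04% in the PB-4 libraries. The lower miRNAs took 19.6 to 20.7% and 13.5 to 14.3%. Among the 262 miRNAs with a mean of at least 50 CPM, 69 were higher (26.3%) and 42 were lower (16.03%). Many risers were scarce in control cells: 51 of the 153 had a control mean under 2 CPM, and 36 passed the count filter only through the PB-4 libraries.

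The balance between rises and falls depended on the scaling. The median log2 fold change of all tested miRNAs was 0.16 with TMM factors, 0.04 with RLE size factors and 0.17 with library totals, and each fold below should be read against that shift. Higher miRNAs were 71.8% of the calls in the fit reported here, 62.0% with RLE (137 higher, 84 lower), 59.7% with DESeq2 (141 and 95) and 58.5% with edgeR's filterByExpr (141 and 100 of 615 tested). At 2-fold or more they were 88.8% of the calls, against 78.0% with RLE (92 and 26). The lower calls also leaned on single libraries: 32 were left without PB-4 replicate 1, 39 without PB-4 replicate 3 and 40 without control replicate 1, while 79 were called without PB-4 replicate 2. None of the 213 calls changed sign in any of the 14 alternatives, of which filterByExpr tested 199 of them, and 118 were called in every alternative.

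**Figure D1:**
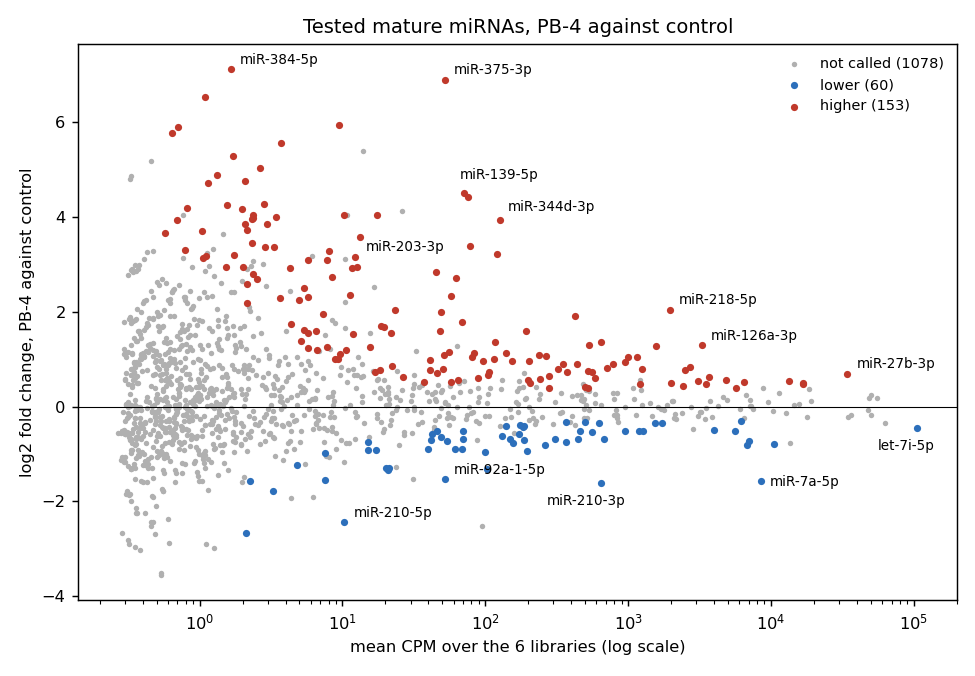
Each point is a tested mature miRNA, with its mean level over the 6 libraries in CPM on the horizontal log axis and its log2 fold change (PB-4 against control) on the vertical axis, coloured by call. The 153 higher miRNAs reach log2 changes of about 7 and spread over all levels, while the 60 lower miRNAs lie mostly above 5 CPM with shallow changes.

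The largest rise among miRNAs with a mean of at least 50 CPM was that of miR-375-3p, a miRNA of pancreatic islets that restrains insulin secretion in mice. It lay at 0.324, 1.37 and 0.838 CPM in the control libraries and 106, 81.4 and 123 CPM in the PB-4 libraries (2, 8 and 3 counts against 554, 511 and 541). The groups lay far apart, and the fold change on so few control counts is imprecise (log2 fold change 6.90 ± 0.44, adjusted p = 5.6e-05, edgeR). miR-139-5p, which lies in Pde2a (chr7:101475382-101475403), lay at 6.81, 5.14 and 5.86 CPM in the control libraries and 139.8, 116 and 149.7 CPM in the PB-4 libraries. It was higher in all 3 PB-4 libraries (log2 fold change 4.50 ± 0.18, adjusted p = 4.6e-08), and its other arm miR-139-3p also rose (2.59 ± 0.54, adjusted p = 0.0066; 0.058 without PB-4 replicate 1, within 5.9e-04 to 0.058 over the alternatives). miR-203-3p, a miRNA of stratified epithelium that ends the stem-like state of mouse keratinocytes (chr12:112130927-112130948), lay at 12.3, 17.5 and 10.9 CPM in the control libraries and 146, 144 and 141 CPM in the PB-4 libraries. Its PB-4 values agreed closely and did not overlap with control (log2 fold change 3.40 ± 0.19, adjusted p = 7.4e-07).

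Other strong risers were already well above the floor in control cells. miR-218-5p, a motor neuron miRNA encoded in both Slit2 (chr5:48223966-48223986) and Slit3 (chr11:35616840-35616860), lay at 825, 765 and 698 CPM in the control libraries and 3239.9, 2915 and 3288 CPM in the PB-4 libraries. It was the miRNA with the highest PB-4 level among those that rose at least 4-fold (log2 fold change 2.05 ± 0.11, adjusted p = 4.4e-07). miR-615-3p, which lies in the Hoxc5 gene (chr15:103014969-103014990), lay at 23.02, 25.001 and 22.1 CPM in the control libraries and 204, 227 and 225 CPM in the PB-4 libraries. It rose (log2 fold change 3.22 ± 0.13, adjusted p = 4.6e-08), whereas its other arm miR-615-5p varied widely within the control group (16.9, 8.56 and 1.95 CPM) and was not called (-0.49 ± 0.67). miR-224-5p and miR-452-5p, neighbours within the Gabre gene on chromosome X, both rose: miR-224-5p from 179 ± 36.1 to 675 ± 9.29 CPM (log2 fold change 1.92 ± 0.14, adjusted p = 8.5e-06) and miR-452-5p from 9.19 ± 0.752 to 29.7 ± 7.20 CPM (1.69 ± 0.23, adjusted p = 5.4e-04). miR-676-3p, which lies in Eda, rose from 10.9 ± 3.10 to 79.3 ± 12.1 CPM (2.85 ± 0.23, adjusted p = 1.3e-05). miR-193b-3p, which represses cyclin D1 in human melanoma cells, lay at 25.8, 14.4 and 18.99 CPM in the control libraries and 79.2, 51.9 and 104 CPM in the PB-4 libraries, and its groups did not overlap although its PB-4 values spread 2-fold (log2 fold change 1.99 ± 0.31, adjusted p = 0.0030).

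Rises between 2-fold and 4-fold were seen in miRNAs with more counts. miR-126a-3p, the endothelial miRNA encoded in Egfl7, lay at 2020.0, 1890.0 and 1765 CPM in the control libraries and 4892, 4385 and 4659 CPM in the PB-4 libraries, which do not overlap (log2 fold change 1.30 ± 0.10, adjusted p = 8.2e-06). miR-92b-3p rose from 31.03 ± 1.78 to 106.6 ± 11.4 CPM (log2 fold change 1.78 ± 0.14, adjusted p = 1.2e-05), miR-542-3p from 95.4 ± 3.78 to 288 ± 55.97 CPM (1.60 ± 0.15, adjusted p = 3.7e-05), and miR-335-5p, which lies in the imprinted gene Mest, from 361 ± 117 to 929.7 ± 35.5 CPM (1.37 ± 0.21, adjusted p = 0.0037). miR-455-3p, a cartilage miRNA in Col27a1, rose from 65.2 ± 7.66 to 168 ± 4.06 CPM (1.36 ± 0.13, adjusted p = 3.7e-05), and miR-185-5p from 915 ± 51.5 to 2212 ± 187 CPM (1.27 ± 0.10, adjusted p = 1.2e-05). Of the 10 miRNAs with the most counts, only miR-27b-3p was higher and only let-7i-5p was lower. miR-27b-3p lay at 26951, 28835 and 22918 CPM in the control libraries and 42782, 47059.8 and 37519 CPM in the PB-4 libraries (log2 fold change 0.69 ± 0.12, adjusted p = 0.0017), and its call was lost without PB-4 replicate 2 (adjusted p = 0.052, the largest of its alternatives, which began at 8.9e-11).

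**Figure D2:**
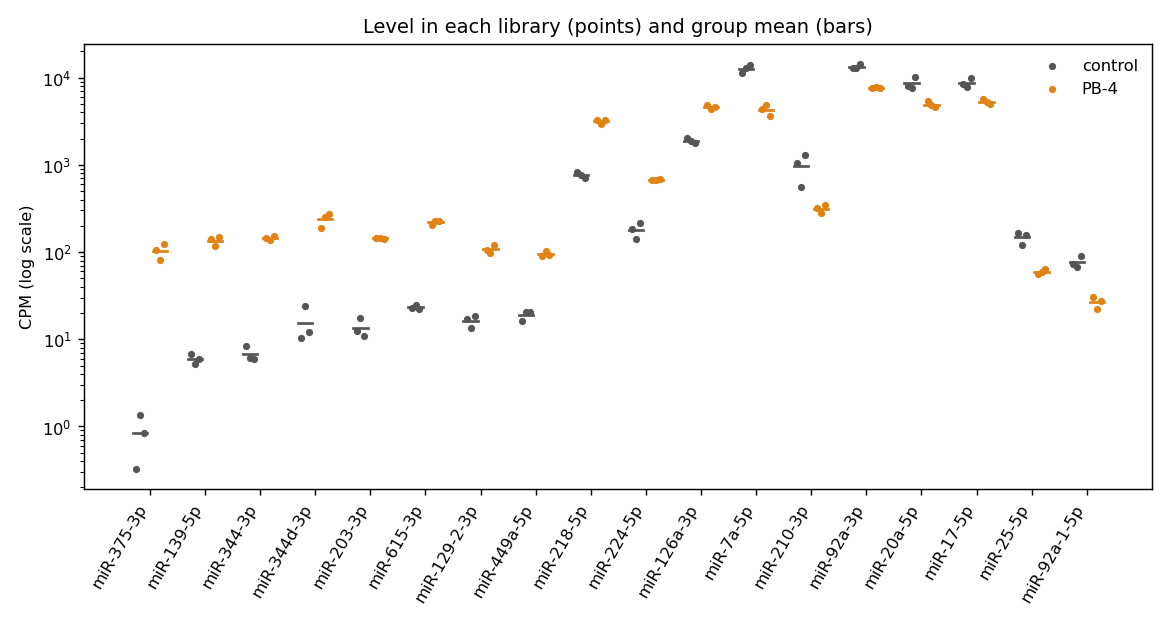
Level of 18 named miRNAs in CPM (vertical log axis), with a point for each of the 3 control and 3 PB-4 libraries and a bar at each group mean. The 11 miRNAs from miR-375-3p to miR-126a-3p are higher in every PB-4 library and the other 7 are lower in every PB-4 library than in any control library.

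Members of the miR-344 family rose from low levels. Of its 19 mature members, 13 were tested and 8 were higher, each by more than 2-fold, and none was lower (median log2 fold change 3.10, against 0.16 over all miRNAs tested). 7 of the 13 passed the filter only through the PB-4 libraries, so their number says little by itself. The share called higher over all tested miRNAs was 11.9%. Its summed level was 22.9 to 40.1 CPM in the control group and 416 to 532 CPM with PB-4. miR-344d-3p, made from 3 hairpins on chromosome 7 (chr7:61683127-61683148, chr7:61685279-61685300 and chr7:61726256-61726277), lay at 10.4, 23.97 and 12.01 CPM in the control libraries and 190.3, 251 and 275 CPM in the PB-4 libraries (log2 fold change 3.94 ± 0.39, adjusted p = 0.0013). miR-344-3p, from chr7:61877782-61877804 and a second copy, lay at 8.27, 6.16 and 5.86 CPM in the control libraries and 145, 139 and 154 CPM in the PB-4 libraries (log2 fold change 4.42 ± 0.18, adjusted p = 4.6e-08). The groups of both were far apart. miR-344d-3-5p, the miRNA to which the study turned for its functional work (chr7:61726296-61726318), is the 5p arm of the third miR-344d hairpin. It lay at 1.13, 2.74 and 0.838 CPM in the control libraries and 11.2, 13.5 and 17.2 CPM in the PB-4 libraries (7, 16 and 3 counts against 59, 85 and 76), and every PB-4 library exceeded every control library (log2 fold change 3.10 ± 0.43, adjusted p = 5.6e-04). In the rest of the family, miR-344c-3p rose from 1.94 ± 1.63 to 32.8 ± 8.09 CPM (4.05 ± 0.62, adjusted p = 0.0056) and miR-344b-3p from 0.336 ± 0.443 to 18.4 ± 1.29 CPM (5.95 ± 0.74, adjusted p = 0.0012). miR-344e-3p had no counts in the control libraries and 5, 14 and 15 with PB-4, at least 11.04-fold higher against a floor of 3 counts over the control group.

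miRNAs of other large clusters appeared at low levels in PB-4-treated cells. In the X-linked cluster of miR-465, miR-741 and miR-880, whose members are known from mouse testis, 11 of 25 tested were higher, none was lower and 24 had a positive log2 fold change (median 2.69), with 15 of the 25 tested only through the PB-4 libraries. Over all tested miRNAs 11.9% were higher. The filter favours a positive change in members tested only through PB-4, so the counts here and for Dlk1-Dio3 say little by themselves. The summed level of the list was 5.58 to 15.9 CPM in the control group and 64.98 to 112 CPM with PB-4. miR-881-3p (chrX:66801954-66801975) lay at 1.46, 1.54 and 0.279 CPM in the control libraries and 20.9, 12.1 and 25.6 CPM in the PB-4 libraries (log2 fold change 4.05 ± 0.51, adjusted p = 5.9e-04), and these do not overlap. In the imprinted Dlk1-Dio3 clusters on chromosome 12, 10 of 43 tested were higher and none was lower (median 1.81, 24 of the 43 tested only through PB-4), at 23.5 to 41.6 CPM in the control group and 58.6 to 110.4 CPM with PB-4 in sum. All 10 called members of this list lie in the miR-379 to miR-410 stretch (chr12:109709060-109747960). miR-341-3p, which the list leaves out and which lies on the same chromosome outside that stretch, was also higher (3.20 ± 0.65, adjusted p = 0.0056). miR-381-3p rose from 0.538 ± 0.224 to 6.06 ± 1.63 CPM (log2 fold change 3.37 ± 0.47, adjusted p = 5.7e-04), miR-379-5p from 0.258 ± 0.0786 to 5.43 ± 2.23 CPM (4.27 ± 0.58, adjusted p = 5.4e-04) and miR-541-5p from 0.261 ± 0.0915 to 4.45 ± 2.09 CPM (3.98 ± 0.63, adjusted p = 0.0013). The 26 tested members of the Sfmbt2 intron cluster, by contrast, held no call under edgeR (median -0.15). In the X-linked cluster the calls of miR-871-5p, miR-880-3p and miR-465c-5p were each lost without at least 1 library (adjusted p = 0.055 to 0.10, edgeR). In the Dlk1-Dio3 clusters that of miR-411-3p was lost without PB-4 replicates 1, 2 or 3 or control replicates 1 or 3 (0.066 to 0.12). There miR-410-3p (0.082 to 0.13) and miR-494-3p (0.053 without control replicate 1) also lost theirs.

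4 called miRNAs had no counts in any control library. miR-384-5p, a brain miRNA with the seed of the miR-30 family, had 17, 19 and 16 counts with PB-4, at least 16.9-fold higher against the floor of 3 counts over the group (0.0013 as adjusted p in edgeR). Beside miR-344e-3p, the others were miR-465a-5p (6, 8 and 8 counts, at least 7.14-fold) and the embryonic stem cell miRNA miR-295-3p (9, 5 and 6 counts, at least 6.49-fold, adjusted p = 0.013 and 0.079 without PB-4 replicate 1, within 0.0015 to 0.079). miR-30a-5p, miR-30c-5p and miR-30e-5p, which share the seed of miR-384-5p, were not called. miR-302b-3p, of the other embryonic stem cell cluster, was abundant in both groups (9269.9, 8629 and 9554 CPM in the control libraries and 9263, 9382 and 10765 CPM in the PB-4 libraries) and was not called (0.10 ± 0.10).

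The miR-34 and miR-449 family, whose miR-34 branch is induced by p53 and whose miR-449 branch marks multiciliated cells, held called members of each branch. Of 9 members tested 6 were higher and none was lower (median 1.09), namely both arms of miR-34b and miR-34c, miR-449a-5p and miR-449c-5p. The call of miR-34b-5p was lost without PB-4 replicates 1, 2 or 3 or control replicates 1 or 2 (adjusted p = 0.068 to 0.14). miR-449a-5p, which lies in Cdc20b, was at 16.05, 20.4 and 20.7 CPM in the control libraries and 90.8, 103 and 92.5 CPM in the PB-4 libraries (log2 fold change 2.33 ± 0.16, adjusted p = 4.1e-06). miR-449c-5p rose from 3.70 ± 1.08 to 18.9 ± 1.89 CPM (2.36 ± 0.28, adjusted p = 2.2e-04) and miR-34c-5p from 761 ± 156 to 1565 ± 102 CPM (1.04 ± 0.15, adjusted p = 6.8e-04). miR-34a-5p, which has the same seed and a gene of its own on chromosome 4, was at 1776, 2011 and 2990.4 CPM in the control libraries and 2058, 2135 and 1879 CPM in the PB-4 libraries, with overlapping groups (-0.16 ± 0.19, adjusted p = 0.66). The difference between miR-34a-5p and the other members was not tested. In the X-linked miR-322 to miR-450 cluster, 5 of 13 tested were higher, none was lower and all 13 had a positive log2 fold change (median 0.61). The 5 were miR-542-3p, miR-450a-5p, miR-450b-3p, miR-322-3p and miR-503-3p. The call of miR-322-3p was lost without PB-4 replicates 1 or 2 or control replicate 2 (adjusted p = 0.051 to 0.14). That of miR-503-3p was lost without PB-4 replicates 1 or 2 or control replicate 2 (adjusted p = 0.071 to 0.16). Of 11 tested in the families of miR-99, miR-100 and miR-125, 6 were higher and none was lower (median 0.47), among them miR-100-5p from 6.10 to 17.7 CPM (1.53 ± 0.24, adjusted p = 0.0013). Without PB-4 replicate 2 the calls of miR-99b-5p (adjusted p = 0.082, edgeR), miR-99b-3p (0.36), miR-125a-5p (0.077) and miR-125b-5p (0.15) were lost. That of miR-99b-3p was also lost without PB-4 replicates 1 or 3 or control replicate 2. Counts in these families and clusters stand beside 11.9% higher over all tested miRNAs.

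The main group among the falls was the miR-17-92 cluster and its paralogs, miRNAs known to favour the cell cycle and survival. Of 23 members tested 13 were lower and none was higher (median -0.51), with 16 lower under RLE and 11 under library totals. Over all tested miRNAs 4.65% were lower. The summed level was 46918 to 55018 CPM in the control group and 31499 to 34349.6 CPM with PB-4. miR-20a-5p lay at 8090.1, 7692 and 10196 CPM in the control libraries and 5369, 4797 and 4587 CPM in the PB-4 libraries (log2 fold change -0.82 ± 0.12, adjusted p = 8.5e-04). miR-17-5p lay at 8532, 7758 and 9819 CPM in the control libraries and 5670.4, 5191 and 4969 CPM in the PB-4 libraries (log2 fold change -0.72 ± 0.11, adjusted p = 8.7e-04). The PB-4 libraries lay below every control library for both, as they did for miR-92a-3p, at 12772, 12794 and 14258 CPM in the control libraries and 7610.1, 7894 and 7606 CPM in the PB-4 libraries (log2 fold change -0.79 ± 0.09, adjusted p = 1.5e-04). Among the scarcer arms, some had larger falls than their partners, miR-92a-1-5p from 77.1 ± 11.04 to 26.7 ± 4.33 CPM (-1.53 ± 0.18, adjusted p = 1.7e-04) and miR-25-5p from 147 ± 24.4 to 59.4 ± 3.88 CPM (-1.31 ± 0.15, adjusted p = 1.6e-04). Others moved less than their partners, with log2 fold changes of -0.41 for miR-17-3p and -0.51 against -0.74 for the 3p and 5p arms of miR-18a, and miR-20a-3p (-0.56) and miR-93-3p (-0.25) were not called, though the former was with the block (adjusted p = 0.038). The differences between arms were not tested. The call of miR-17-3p was lost without PB-4 replicates 1 or 3 or control replicates 1 or 3 (adjusted p = 0.051 to 0.12). That of miR-18a-3p was lost without PB-4 replicates 1 or 3 or control replicate 1 (adjusted p = 0.071 to 0.13). miR-25-3p fell little (-0.31 ± 0.10, adjusted p = 0.049), and its call was lost without PB-4 replicate 1 (0.16), PB-4 replicate 3 (0.16), control replicate 1 (0.13) and control replicate 2 (0.10), within 0.0014 to 0.16. The miR-19 members of the cluster were not called: miR-19b-3p lay at 957, 1109.6 and 1619 CPM in the control libraries and 1342, 1412 and 1012 CPM in the PB-4 libraries, with overlapping groups (0.03 ± 0.22). By position, 7 of 11 tested miRNAs of the chromosome 14 cluster (chr14:115043671-115044506), 5 of 6 of the miR-106b to miR-25 cluster within Mcm7 (chr5:138165321-138165818) and 2 of 6 of the X-linked paralog cluster (chrX:52741693-52742567) were lower.

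Among miRNAs with a mean of at least 50 CPM, the steep falls of miR-210-3p and miR-7a-5p lay outside that cluster. In size they were close to the fall of miR-92a-1-5p within it (log2 fold change -1.53), and the differences were not tested. miR-210, the miRNA most often linked to hypoxia and HIF-1, fell on both arms. miR-210-3p lay at 1051, 556 and 1294 CPM in the control libraries and 321, 280.0 and 345 CPM in the PB-4 libraries (log2 fold change -1.62 ± 0.33, adjusted p = 0.025). Control replicate 2 was the lowest control library but lay above every PB-4 library, and the call was lost without PB-4 replicate 1 (0.082), PB-4 replicate 3 (0.069), control replicate 1 (0.085) and control replicate 3 (0.053), within 5.6e-09 to 0.085. miR-210-5p was lower in every PB-4 library, at 23.5, 11.1 and 17.6 CPM in the control libraries and 2.86, 2.87 and 3.85 CPM in the PB-4 libraries (log2 fold change -2.44 ± 0.33, adjusted p = 4.8e-04). miR-7a-5p, enriched in neurons and endocrine cells and in this line among the abundant miRNAs, lay at 11359, 12985 and 13818 CPM in the control libraries and 4348, 4923 and 3593 CPM in the PB-4 libraries. Its fall in CPM was second to that of let-7i-5p among the lower miRNAs (log2 fold change -1.57 ± 0.13, adjusted p = 1.3e-05), and miR-7b-5p, which differs from it little in sequence and may share reads with it, fell too (-1.29 ± 0.28, adjusted p = 0.0079). let-7i-5p, with the most counts of all miRNAs, lay at 109375, 121761 and 136556 CPM in the control libraries and 84037, 94192 and 91059.8 CPM in the PB-4 libraries (log2 fold change -0.45 ± 0.10, adjusted p = 0.011). Its call was lost without PB-4 replicate 1 (0.11), PB-4 replicate 3 (0.059) and control replicate 2 (0.055), within 8.7e-05 to 0.11.

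The 3p arms of the miR-16 hairpins, whose family restrains G1 cyclins, fell as well: miR-16-1-3p from 257 ± 39.9 to 134 ± 7.85 CPM (log2 fold change -0.95 ± 0.13, adjusted p = 5.5e-04) and miR-16-2-3p from 80.1 ± 19.9 to 42.99 ± 2.64 CPM (-0.90 ± 0.18, adjusted p = 0.0051). The abundant arm miR-16-5p did not pass (4087, 3786 and 4561 CPM in the control libraries and 3544, 3674 and 3454 CPM in the PB-4 libraries, -0.22 ± 0.10, adjusted p = 0.17). Of 14 tested members of the miR-130, miR-301, miR-148 and miR-152 families 6 were lower, among them miR-301a-5p from 335 ± 32.99 to 190.4 ± 9.67 CPM (-0.81 ± 0.11, adjusted p = 5.4e-04) and miR-130a-5p from 28.6 ± 6.50 to 11.6 ± 0.795 CPM (-1.31 ± 0.22, adjusted p = 0.0017), and miR-152-3p was higher, from 1946 ± 207 to 3489 ± 191 CPM (0.84 ± 0.11, adjusted p = 2.7e-04). miR-1191a fell from 132 ± 27.98 to 67.5 ± 5.16 CPM (-0.97 ± 0.16, adjusted p = 0.0017) and miR-1954 from 30.1 ± 6.66 to 11.9 ± 2.15 CPM (-1.34 ± 0.23, adjusted p = 0.0021). The melanocyte miRNA miR-211-5p, from an intron of Trpm1, lay at 209.9, 205 and 130.4 CPM in the control libraries and 113, 111 and 117 CPM in the PB-4 libraries. The groups did not overlap (log2 fold change -0.68 ± 0.17, adjusted p = 0.020), but the call was lost without PB-4 replicate 1 (0.086), PB-4 replicate 3 (0.052), control replicate 1 (0.079) and control replicate 2 (0.085), within 2.4e-04 to 0.086. The let-7 family (1 higher and 2 lower of 23), the miR-30 family (0 and 1 of 11) and the miR-221 and miR-222, miR-26 and miR-103 lists (none called of 4, 5 and 5, edgeR) held few or no calls, beside a background of 11.9% higher and 4.65% lower. With the block, miR-26b-3p was called lower (log2 fold change -0.62 ± 0.20, adjusted p = 0.025, edgeR). The counts became 15 lower for the miR-17-92 list, 7 higher for the miR-322 to miR-450 cluster and 12 higher for the X-linked testis cluster. They became 11 higher for the Dlk1-Dio3 clusters, and 2 higher and 7 lower for the miR-130, miR-301, miR-148 and miR-152 families. Over all 1291 tested miRNAs the block gave 188 higher and 79 lower calls, against 153 and 60 without it.

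**Figure D3:**
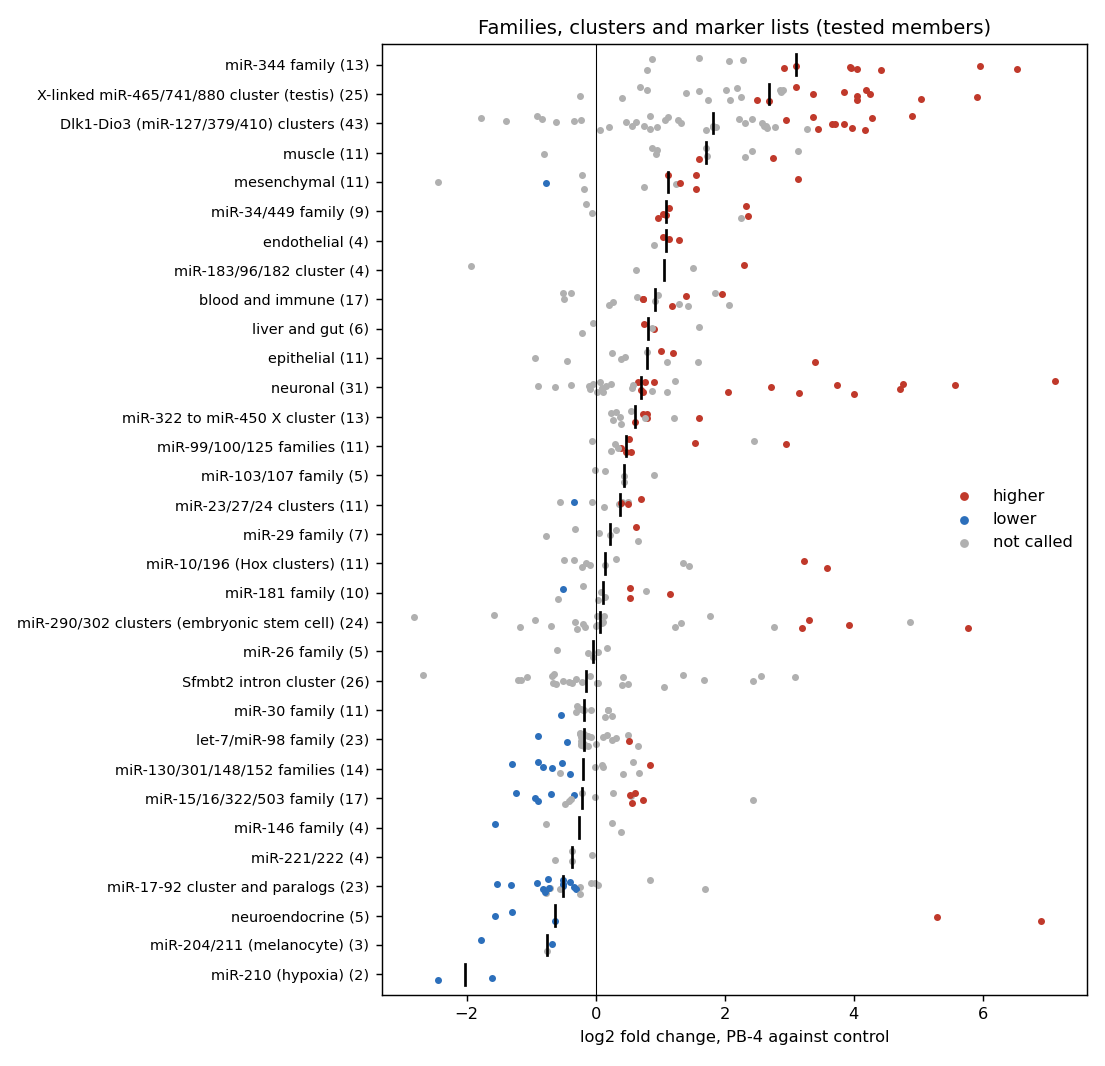
Log2 fold change (PB-4 against control) on the horizontal axis of each tested member of the families, clusters and marker lists named on the vertical axis, with the number tested in brackets and points coloured by call. The miR-344 family, the X-linked testis cluster and the Dlk1-Dio3 clusters extend to the right, with 8, 11 and 10 higher members of 13, 25 and 43 tested. Of those tested, 7, 15 and 24 passed the count filter only through the PB-4 libraries, which favours the right. The miR-17-92 list holds 13 lower members of 23 tested. Over all tested miRNAs 11.9% were higher and 4.65% lower.

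Hairpins that make an identical major arm from separate genes could be told apart by their other arm. miR-7a-5p is made from Mir7-1 in Hnrnpk (chr13:58392841-58392863) and from Mir7-2 (chr7:78888295-78888317). The arm particular to Mir7-1, miR-7a-1-3p, lay at 55.4, 59.8 and 63.4 CPM in the control libraries and 40.8, 39.5 and 34.9 CPM in the PB-4 libraries and fell with miR-7a-5p (log2 fold change -0.63 ± 0.14, adjusted p = 0.010). The arm of Mir7-2, miR-7a-2-3p, had 0, 1 and 0 counts in the control group and 15, 23 and 16 with PB-4, and rose (adjusted p = 0.0013). The ratio of its counts per library total was 52.6, with an exact 95% interval of 9.05 to 2115 for counting error only. miR-129-5p comes from Mir129-1 and Mir129-2 and rose from 1869.7 ± 121 to 3175 ± 67.5 CPM (0.76 ± 0.09, adjusted p = 2.2e-04). miR-129-2-3p lay at 17.2, 13.4 and 18.7 CPM in the control libraries and 106, 97.6 and 121 CPM in the PB-4 libraries (log2 fold change 2.72 ± 0.17, adjusted p = 2.5e-06), while miR-129-1-3p lay at 141, 138 and 175 CPM in the control libraries and 153, 152.4 and 133 CPM in the PB-4 libraries with overlapping groups (-0.05 ± 0.13). miR-125b-1-3p rose from 2.87 ± 0.343 to 22.3 ± 4.46 CPM (2.94 ± 0.26, adjusted p = 2.7e-05) and miR-125b-2-3p was not called (0.23 ± 0.10). Likewise miR-181a-2-3p rose (1.15 ± 0.16, adjusted p = 5.9e-04) and miR-181a-1-3p was not called (0.07 ± 0.11). let-7f-1-3p fell (-0.90 ± 0.13, adjusted p = 8.6e-04) and let-7f-2-3p was not called (-0.08 ± 0.16). The differences between copies were not tested.

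**Figure D4:**
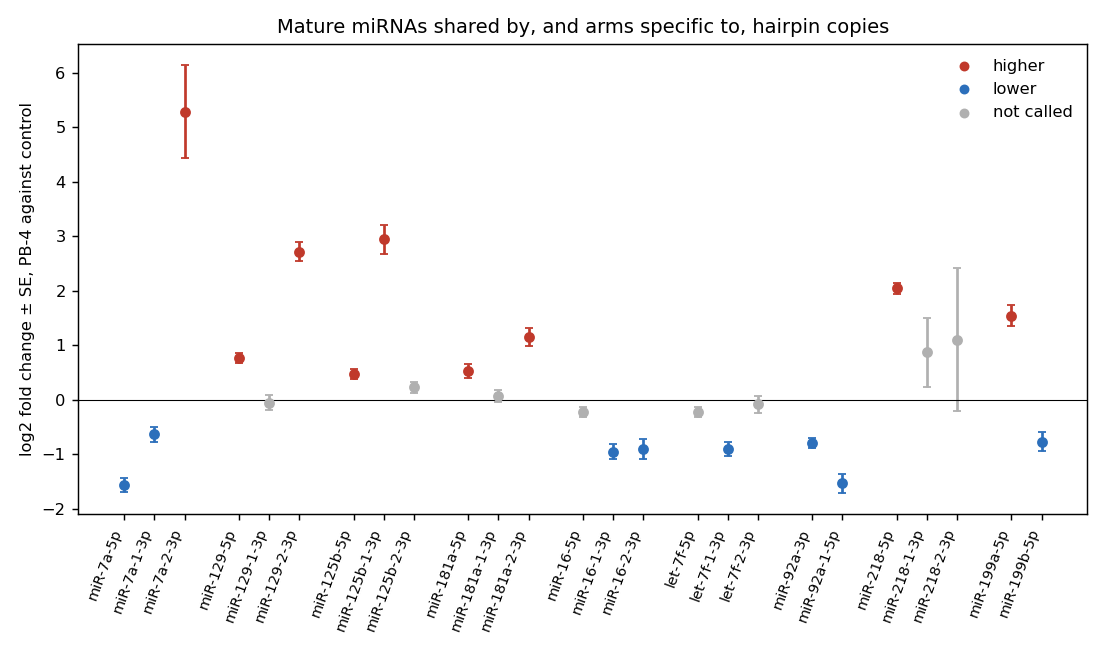
Log2 fold change ± standard error (PB-4 against control, vertical axis) of mature miRNAs made by more than 1 hairpin copy and of the arms specific to each copy, coloured by call. Within the miR-7a, miR-129, miR-125b and miR-181a groups the copies part, for example 2.72 for miR-129-2-3p and -0.05 for miR-129-1-3p.

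Over 359 hairpins with both arms tested, both arms were called in the same direction in 33 (21 higher, 12 lower) and in opposite directions in 1, that of miR-497a (5p 0.52, 3p -1.24). miR-497a-3p lies opposite miR-497b and overlaps it by 17 bases at similar counts (151 and 194 over the 6 libraries). Its value may therefore be shared in part. A single arm was called in 81 and neither in 244. By seed, 5 of 7 tested miRNAs with AAAGUGC (miR-17-5p, miR-20a-5p, miR-20b-5p, miR-93-5p and miR-106b-5p) were lower and none was higher. Of 6 with AUUGCAC, miR-92b-3p was higher and miR-92a-3p and miR-25-3p were lower. All 3 with AUAUAAC (miR-344d-3p, miR-344e-3p and miR-410-3p), both with GAUCUAG (miR-344-3p and miR-344c-3p) and all 3 with AUUUAGA (miR-465a-5p, miR-465b-5p and miR-465c-5p, near-identical in sequence) were higher. Both with GGAAGAC (miR-7a-5p and miR-7b-5p) were lower. Over all tested miRNAs 11.9% were higher and 4.65% lower. miR-344e-3p and miR-465a-5p had no control counts and miR-410-3p had 2, so they passed the count filter only through the PB-4 libraries. Their direction therefore says little by itself. Some of the calls named by arm or seed rested on single libraries, that of miR-25-3p as given above. That of miR-93-5p was lost without PB-4 replicate 3 (adjusted p = 0.057). That of miR-106b-5p was lost without PB-4 replicates 1 or 3 or control replicates 1 or 2 (adjusted p = 0.085 to 0.16). That of miR-410-3p was lost without PB-4 replicates 1 or 3 or control replicates 1 or 3 (adjusted p = 0.082 to 0.13). That of miR-465c-5p was lost without PB-4 replicate 1 or control replicate 1 (adjusted p = 0.068 to 0.10). That of miR-497a-5p was lost without PB-4 replicates 1, 2 or 3 or control replicates 1 or 2 (adjusted p = 0.084 to 0.24). That of miR-497a-3p was lost without PB-4 replicates 1 or 3 or control replicate 1 (adjusted p = 0.053 to 0.071). The first base was U in 49.3% of 134 higher, 26.8% of 56 lower and 41.8% of 936 other tested miRNAs with a sequence, and median GC content was 47.6, 48.9 and 52.2%. Of miRNAs placed on a single chromosome, 22.2% of those tested on chromosome 7 and 21.5% of those on X were higher, and none on chromosomes 10 and 14. Members of a cluster share a position, so these shares are not independent.

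Lists of miRNAs known from other cell types were counted as a check of the label. Their counts stand beside the shares over all tested miRNAs, 11.9% higher and 4.65% lower, and 6 of the 31 neuronal, 6 of the 11 muscle, 3 of the 17 blood and immune and 2 of the 11 epithelial members were tested only through the PB-4 libraries. In the neuronal list 14 of 31 tested were higher and none was lower (median 0.71), with a sum of 14949.7 to 15917 CPM in the control group and 19388 to 20071 CPM with PB-4. Its defining member miR-124-3p was nearly absent (0.0571 and 0.523 CPM as means), whereas miR-132-3p, a target of CREB, rose from 306 ± 5.49 to 572 ± 26.4 CPM (log2 fold change 0.90 ± 0.10, adjusted p = 1.1e-04) and miR-135a-5p from 2.49 ± 0.273 to 22.2 ± 2.80 CPM (3.15 ± 0.25, adjusted p = 1.2e-05). In the neuroendocrine list 2 of 5 were higher and 3 were lower, and its sum of 11441 to 13916 CPM in the control group and 3762 to 5063 CPM with PB-4 followed miR-7a-5p. In the epithelial list 3 of 11 were higher (39.7 to 43.6 CPM in the control group and 189.9 to 194 CPM with PB-4), namely miR-203-3p, miR-200a-3p (from 6.48 to 14.9 CPM) and miR-200b-3p, with the keratinocyte miRNA miR-205-5p at means of 0.655 and 0.448 CPM. The call of miR-200b-3p was lost without PB-4 replicates 1, 2 or 3 or control replicates 1 or 2 (adjusted p = 0.054 to 0.11). In the mesenchymal list 5 of 11 were higher and miR-199b-5p was lower (1759.7 to 1958 CPM in the control group and 2029.9 to 2178 CPM with PB-4), and miR-143-3p rose from 308 ± 15.2 to 762 ± 26.3 CPM (1.31 ± 0.10, adjusted p = 8.2e-06). The call of miR-199b-5p was lost without PB-4 replicate 1 (adjusted p = 0.061). Of the higher members, miR-143-5p and miR-145a-3p lost their calls without PB-4 replicates 1 or 2 or control replicates 1 or 2 (adjusted p = 0.055 to 0.11, edgeR). That of miR-214-5p, with 3 counts in the control group, was lost without PB-4 replicates 1 or 3 or control replicate 1 (0.066 to 0.070). In the muscle list 2 of 11 were higher (22.1 to 45.5 CPM in the control group and 89.1 to 113 CPM with PB-4), miR-206-3p from 23.8 to 72.8 CPM and miR-499-5p from 2.15 to 14.8 CPM, with miR-133a-3p at 0.483 and 0.981 CPM. In the blood and immune list 5 of 17 were higher (408 to 529 CPM in the control group and 747 to 851 CPM with PB-4), with miR-142a-3p at 0.171 and 0.773 CPM and miR-223-3p at 0.742 and 0.570 CPM. The higher ones were both arms of miR-155 and of miR-486b, and miR-486a-3p. The calls of miR-155-5p (adjusted p = 0.055, edgeR) and miR-486b-3p (0.087) were lost without PB-4 replicate 2, the latter also without control replicate 1 (0.051). Those of miR-155-3p and miR-486b-5p were lost without PB-4 replicates 1 or 2 or control replicates 1 or 2 (0.064 to 0.31). In the endothelial list 3 of 4 were higher (1876 to 2126 CPM in the control group and 4619 to 5140.2 CPM with PB-4). Its 4 members were the arms of miR-126a and miR-126b, from opposite strands of the same locus, and are not separate markers. In the liver and gut list 2 of 6 were higher (618 to 707 CPM in the control group and 1049 to 1251 CPM with PB-4). The hepatocyte miRNA miR-122-5p lay at 1.94 and 6.09 CPM and was called only with the block (adjusted p = 0.011, edgeR). The part of other cell types in these results was not tested.

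ATRA served as the second treatment of the study. ATRA against control gave 41 calls of 1213 miRNAs tested (3.38%) and PB-4 against ATRA 183 of 1249 (14.7%), of which 118 were higher and 65 lower with PB-4. The count of 183 fell to 88 without PB-4 replicate 1, to 101 without PB-4 replicate 3 and to 105 with the replicate number as a block. These comparisons share libraries with that of PB-4 and control, so each miRNA's values are given side by side. miR-375-3p had a log2 fold change of 6.97 ± 0.28, adjusted p = 6.5e-07 between PB-4 and ATRA, and of -0.16 ± 0.79, adjusted p = 0.97 between ATRA and control (edgeR). For miR-139-5p these were 3.99 ± 0.19, adjusted p = 1.0e-06, and 0.43 ± 0.30, adjusted p = 0.66. For miR-218-5p they were 2.01 ± 0.11, adjusted p = 1.5e-06, and -0.04 ± 0.15, adjusted p = 0.96. For miR-224-5p they were 2.49 ± 0.11, adjusted p = 6.5e-07, and -0.65 ± 0.19, adjusted p = 0.11. miR-344d-3-5p differed less between the treatments (1.17 ± 0.33, adjusted p = 0.041, against 1.84 ± 0.49, adjusted p = 0.076). miR-7a-5p and miR-210-3p did not pass between PB-4 and ATRA (-0.40 ± 0.27, adjusted p = 0.52, and 0.32 ± 0.23, adjusted p = 0.52), and their ATRA changes were -1.23 ± 0.26, adjusted p = 0.045, and -2.02 ± 0.40, adjusted p = 0.071. For miR-92a-3p the values were -0.95 ± 0.10, adjusted p = 1.3e-04, and 0.10 ± 0.14, adjusted p = 0.87.

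Host genes were read from the total RNA libraries of the same 2 groups, where 3139 of 19450 genes tested passed (16.1%). The span of 51 tested genes held 83 called miRNAs on the same strand. Of 34 genes that held higher miRNAs 13 were higher and none was lower, and of 17 that held lower miRNAs 2 were lower and none was higher. With the replicate number as a block, 21 of the 34 were higher and 1 lower, and 10 of the 17 were lower and 2 higher. The labels state no pairing. In total RNA only replicate 3 stood apart in both groups, with the fewest counts (17006638 in the control group and 13928215 with PB-4). Replicates 1 and 2 did not pair by number there, so host gene calls gained with the block rest on an assumed pairing. Over all genes 11.5% were higher and 4.59% lower without the block, and 23.1% and 21.3% with it. The count of 15 called host genes fell to 6 without control replicate 2, to 8 without control replicate 1 and to 9 without PB-4 replicate 2. Pde2a, a cyclic nucleotide phosphodiesterase gene and host of miR-139, lay at 0.0384, 0.0328 and 0.190 CPM in the control libraries and 8.41, 7.14 and 19.4 CPM in the PB-4 libraries (log2 fold change 7.22 ± 0.77, adjusted p = 0.0013, edgeR). A230057D06Rik, a noncoding gene whose span holds miR-344d-3-5p and 5 other called miR-344 arms, lay at 0.154, 0.230 and 0 CPM in the control libraries and 5.18, 3.71 and 6.81 CPM in the PB-4 libraries (log2 fold change 5.15 ± 0.74, adjusted p = 0.0034). Both genes were at or near 0 in control cells and present in all 3 PB-4 libraries. Eda, host of miR-676-3p, lay at 0.346, 0.361 and 0.253 CPM in the control libraries and 4.54, 5.50 and 7.98 CPM in the PB-4 libraries (log2 fold change 4.19 ± 0.48, adjusted p = 0.0015).

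Egfl7, host of miR-126a, lay at 16.01, 17.2 and 31.4 CPM in the control libraries and 59.9, 77.2 and 162 CPM in the PB-4 libraries (log2 fold change 2.21 ± 0.43, adjusted p = 0.011). Slit2, an axon guidance gene and host of a miR-218 copy, lay at 22.2, 18.005 and 4.50 CPM in the control libraries and 83.2, 83.5 and 32.8 CPM in the PB-4 libraries (log2 fold change 2.15 ± 0.58, adjusted p = 0.038), so that replicate 3 was lowest in both groups. Mcm7, a subunit gene of the replicative helicase and host of miR-106b, miR-93 and miR-25, lay at 226, 227 and 344 CPM in the control libraries and 85.7, 102 and 155 CPM in the PB-4 libraries (log2 fold change -1.22 ± 0.29, adjusted p = 0.026). Hnrnpk, host of Mir7-1, was lower in all 3 PB-4 libraries, at 577, 592 and 599.7 CPM in the control libraries and 356, 297 and 271 CPM in the PB-4 libraries (log2 fold change -0.94 ± 0.21, adjusted p = 0.018). The calls of Pde2a, A230057D06Rik and Eda held when each library was left out in turn. That of Egfl7 was lost without control replicates 1 or 2 (adjusted p = 0.054, within 4.1e-11 to 0.054). That of Slit2 was lost without PB-4 replicates 1 or 2 or control replicates 1 or 2 (adjusted p = 0.062 to 0.10, within 1.3e-09 to 0.10). That of Mcm7 was lost without PB-4 replicates 1 or 2 or control replicates 1 or 2 (adjusted p = 0.058 to 0.11, within 2.0e-08 to 0.11). That of Hnrnpk was lost without PB-4 replicate 2 or control replicates 1 or 2 (adjusted p = 0.063 to 0.12, within 1.8e-06 to 0.12). Mir17hg, the host transcript of the miR-17-92 cluster, lay at 11.1, 16.6 and 4.81 CPM in the control libraries and 3.94, 4.27 and 1.79 CPM in the PB-4 libraries. Its groups did not overlap and it was not called (log2 fold change -1.69 ± 0.52, adjusted p = 0.062), but was with the block (adjusted p = 2.3e-05). So were Trpm1, host of miR-211 (log2 fold change -0.91 ± 0.43, adjusted p = 0.18, and 0.047 with the block), and Gabre, host of miR-224 and miR-452 (log2 fold change 3.11 ± 0.92, adjusted p = 0.053, and 0.0013).

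**Figure D5:**
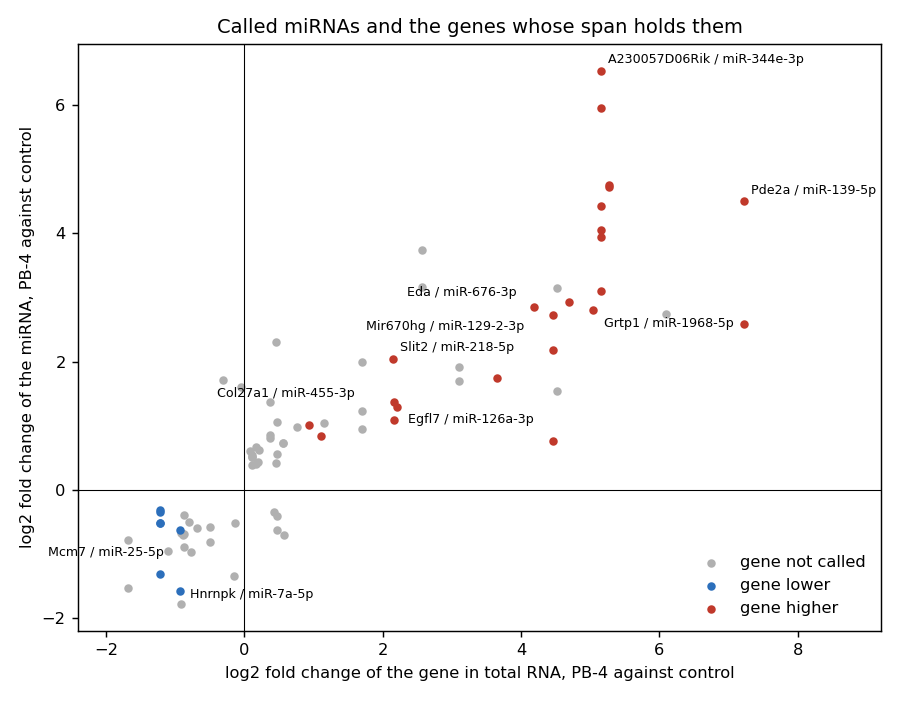
Log2 fold change (PB-4 against control) of each called miRNA on the vertical axis against that of the gene whose span holds it, from total RNA, on the horizontal axis, coloured by the call of the gene. Pde2a with miR-139-5p and A230057D06Rik with the miR-344 arms lie at the upper right, and Mcm7 and Hnrnpk lie at the lower left.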

How the data were processed

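The authors deposited raw read counts (whole numbers, not normalized) for each mature miRNA and for each gene of the total RNA libraries. Per the labels miRNA reads were aligned with BWA (version not given) and total RNA reads with HISAT2 2.0.4, to GRCm38. How reads were counted, on which annotation and with which strand setting, is not given in the sources used. Total RNA rows whose names had turned into dates were left out, which left 46068 genes.

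Counts of at least 10 over the libraries of a comparison were tested with edgeR 4.0.16 (quasi-likelihood, robust, TMM factors) in R 4.3.3, with Benjamini-Hochberg adjustment over all features tested, and called at 0.05. Each standard error is the size of the log2 fold change over the root of its F statistic. Alternatives were DESeq2 1.42.0, RLE size factors, library totals, no filter, filterByExpr, all 9 libraries, limma 3.58.1 voom, the replicate block and each library left out. Only the edgeR fit of PB-4 against control miRNAs, without the block, was run on simulated counts, with changes planted in miRNAs above 5 CPM. Tables were made with Python 3.11.15, pandas 2.3.3, numpy 2.4.6 and matplotlib 3.10.9.

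Same-numbered control and PB-4 libraries deviated together over 1291 miRNAs (r = 0.22, 0.40 and 0.21), against -0.25 to 0.06 for libraries of different number. Over 9897 genes r was 0.74, 0.66 and 0.83. Control replicate 1 with PB-4 replicate 2 (0.56) and control replicate 2 with PB-4 replicate 1 (0.73) were similar. Pairs that crossed replicate 3 lay at -0.80 to -0.66. Total RNA therefore set replicate 3 apart and did not pair replicates 1 and 2 by number. The numbers were taken as pairs on the data alone. A host gene was a gene whose span holds the miRNA on the same strand of GRCm38.p6. Named miRNAs were miR-344d-3-5p, the 12 largest changes per direction at 50 CPM or more, the 8 largest rises and 4 largest falls at 5 to 50 CPM, those absent from a group, the 10 with the most counts, up to 4 per list and the other arms of these. Others named in lists, seeds or host genes were chosen after their values were seen. The lists and this rule were chosen with earlier results of these data known.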

Additional observations from a re-analysis of the deposited data

How the results depend on the processing

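The 60 lower miRNAs were 95 with DESeq2 and 100 with filterByExpr, and 32 to 79 when a library was left out. The 13 that were lower by at least 2-fold were 26 with RLE size factors, 23 with DESeq2, 21 with filterByExpr, 24 with all 9 libraries, 23 with the replicate block and 8 to 24 with a library left out. Higher miRNAs numbered 116 to 188 over all alternatives, within 1.5 times the 153 reported. The 183 calls between PB-4 and ATRA, whose alternatives were chosen after seeing the data, were 105 with the replicate block, although ATRA numbers did not pair with those of PB-4 (same-numbered r of 0.13, -0.79 and -0.78), and 88 to 169 with a library left out. The 15 host genes called, with alternatives also chosen after seeing the data, were 34 with the replicate block and 6 to 18 with a library left out. The block kept all but 2 of the 213 miRNA calls. It lost miR-378a-5p (adjusted p = 0.067, edgeR, within 4.1e-04 to 0.17 over its alternatives) and miR-27a-5p (0.056, within 9.9e-04 to 0.16) and added 56. Of the 213 calls, 88 were lost without at least 1 of the 6 libraries and none changed sign.

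With 3 libraries per group and 818 of 1291 tested miRNAs under 5 CPM, changes of scarce miRNAs were often not detectable. Over all levels, 350 of the 1291 miRNAs had an unadjusted p under 0.05 in edgeR, against 213 calls. Of the 1078 miRNAs not called, 204 had groups without overlap. Chance alone gives some miRNAs of both kinds, and its share was not estimated. The 350 and the 204 are therefore not counts of missed changes. Folds of miRNAs near 0 in control cells depend on the prior count of the fit. How reads of near-identical mature miRNAs (miR-7a-5p and miR-7b-5p, the miR-465 5p arms, let-7 members) were divided is not stated, and the counting of antisense pairs cannot be checked. Dose and time are not given, and whether libraries are separate cultures is not stated.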

Other observations

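2 abundant miRNAs missed the threshold in edgeR and passed it with the replicate block. miR-146a-5p, a feedback regulator of NF-kappaB signalling, lay at 14163, 17345 and 19676 CPM in the control libraries and 8905, 13319.9 and 7718 CPM in the PB-4 libraries (log2 fold change -0.77 ± 0.23, adjusted p = 0.075, and 0.015 under pairing, within 9.6e-04 to 0.25 over its alternatives). miR-21a-5p, which is raised in many tumours, lay at 55493, 82079 and 72796 CPM in the control libraries and 52033, 66889.9 and 47597 CPM in the PB-4 libraries (log2 fold change -0.34 ± 0.17, adjusted p = 0.27, and 0.038 under pairing, within 0.024 to 0.53). In both miRNAs replicate 2 was highest in the PB-4-treated group.

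Some miRNAs differed more within a group than between groups. They were picked after their values were seen, and none was called in edgeR. miR-6481 lay at 11.8, 1.37 and 473 CPM in the control libraries and 45.9, 2.55 and 36.1 CPM in the PB-4 libraries. miR-468-5p lay at 0, 0.685 and 1.40 CPM in the control libraries and 0.571, 0.319 and 81.2 CPM in the PB-4 libraries, so that its PB-4 mean rested on replicate 3. miR-7685-5p lay at 5.51, 1.54 and 1.12 CPM in the control libraries and 87.8, 2.39 and 58.3 CPM in the PB-4 libraries, and miR-1892 at 1.30, 1.20 and 1.12 CPM in the control libraries and 37.3, 0.637 and 22.9 CPM in the PB-4 libraries. miR-320-5p lay at 56.6, 16.6 and 37.1 CPM in the control libraries and 100.2, 4.62 and 162 CPM in the PB-4 libraries. In miR-7685-5p, miR-1892 and miR-320-5p PB-4 replicate 2, the deepest of the 6 libraries, was the low library of its group.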
